A study of Homo sapiens with 6 samples.

Results

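10 genes of the S100 family of calcium-binding proteins were followed in HT-29 cells, a human colon adenocarcinoma line, after RNAi against either of the lncRNAs HOXA-AS3 and HOXB-AS3. The genes are S100A2, S100A3, S100A4, S100A6, S100A10, S100A11, S100A13, S100A14, S100A16 and S100P, matched by Entrez identifier among the 27434 gene rows of each library. All 10 passed the low-count filter that left 13034 genes for testing. The cells were transfected for 48 h with an siRNA pool at 10 nM, as the sample labels give it, and the pool was against HOXA-AS3 (siHOXA-AS3), against HOXB-AS3 (siHOXB-AS3) or non-targeting (siNT). There were 2 libraries of polyadenylated RNA per condition, numbered replicate 1 and 2, and 6 in all. No genetic change separates the conditions, and the whole experiment is in 1 cell line. Nothing in the labels says that the 2 libraries of a condition came from separate cultures, so p-values measure only the spread between these samples, which may be technical.

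S100 proteins are small EF-hand proteins that mostly work as dimers. Calcium opens a groove through which they bind annexins, cytoskeletal proteins, enzymes and p53, and several are secreted and act as ligands of the receptor RAGE. S100A10 is the exception in the family, since it does not respond to calcium and is held in a complex with annexin A2 at the plasma membrane. Most S100 genes sit in a cluster in the epidermal differentiation region of chromosome 1, and several are well known from carcinomas of the gut, S100A4 for its link to metastasis and S100P for its high level in tumour cells.

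Levels are given first as FPKM, which is scaled by gene length and can be compared between genes. S100A6, S100P, S100A11, S100A10 and S100A4 made up 97.4% to 98% of the summed TPM of the 10 genes in every library, and S100A6 alone 25.5% to 37.4%. By mean FPKM over the 6 libraries S100A6 ranked 25th of all 27434 rows, S100P 34th, S100A11 42nd, S100A10 59th and S100A4 117th. S100A16 had a mean of 204 FPKM, S100A13 of 80.2, S100A14 of 29.1 and S100A2 of 11.8. S100A3, best known from the hair cuticle, was barely present, with 0.862 FPKM and 7 to 19 expected counts per library.

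The order of the levels was the same in 5 of 6 libraries. In siHOXB-AS3 replicate 2, S100A10 stood above S100A11. S100A6, S100P, S100A11 and S100A10 overlapped with their neighbours in this order when all libraries were pooled, with S100A6 at 1.06 to 1.48 times S100P and S100P at 1.02 to 1.43 times S100A11 within a library. From S100A10 downward no pair of neighbours overlapped, the nearest being S100A10 and S100A4, with a ratio of 1.58 to 3.72.

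**Figure D1:**
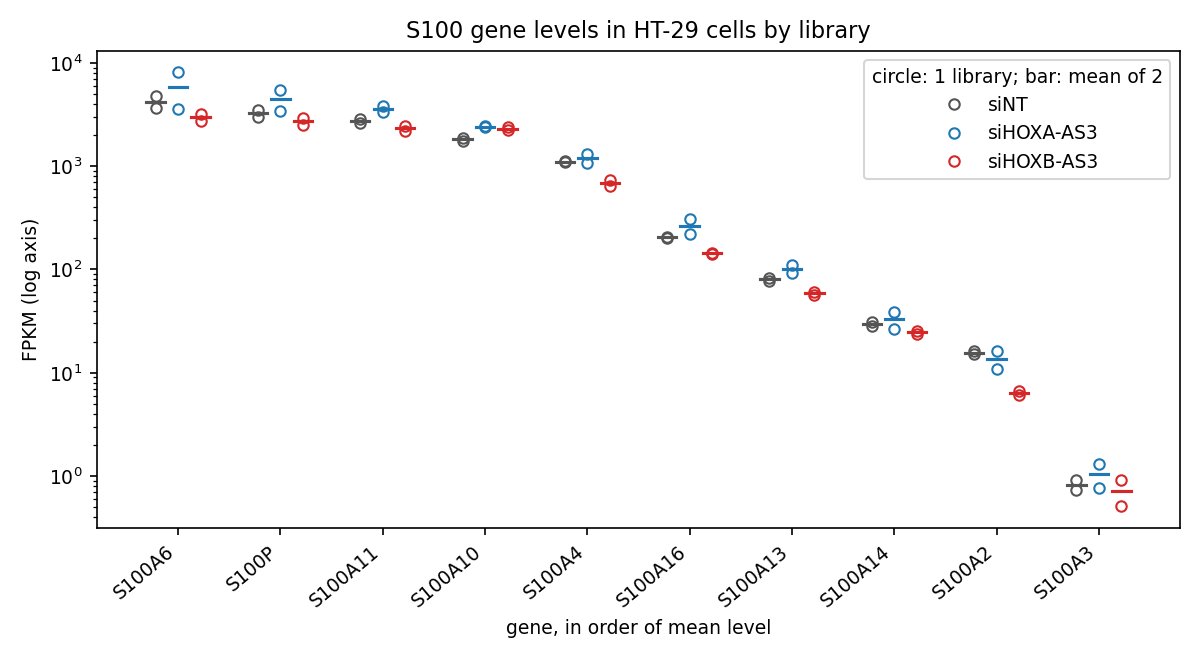
FPKM of each S100 gene on a log axis, with 1 circle per library, a bar at the mean of the 2 libraries and colours for siNT, siHOXA-AS3 and siHOXB-AS3. Mean levels run from 4348 FPKM for S100A6 to 0.862 for S100A3, and the siHOXB-AS3 circles lie below those of both other conditions for every gene except S100A10 and S100A3.

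Added up per length, the 10 genes took 1.84% and 2.04% of all TPM under siNT, 3.04% and 2.13% under siHOXA-AS3, and 1.64% and 1.5% under siHOXB-AS3. On this scale siHOXA-AS3 lay above siNT and siHOXB-AS3 below. The separation was lost on other scales, since siHOXA-AS3 replicate 2 was under siNT replicate 2 in summed FPKM (14186 against 14477) and in summed CPM (7763 against 7880), and siHOXB-AS3 replicate 1 was above siNT replicate 1 in summed CPM (6846 against 6767). The log2 ratio of the mean summed TPM was 0.41 after HOXA-AS3 KD (SD 0.377 from the spread between libraries), -0.30 after HOXB-AS3 KD (SD 0.139) and -0.72 between the KDs (siHOXB-AS3 against siHOXA-AS3, SD 0.372). These ratios were not tested. The first was 0.14 without siHOXA-AS3 replicate 1 and 0.65 without siHOXA-AS3 replicate 2, and the last -0.44 and -0.95. In bulk RNA, fewer cells expressing a gene and less RNA per cell cannot be told apart.

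The targeted lncRNAs and the depth set the frame for the S100 values. HOXA-AS3 had expected counts of 38 and 18 in siNT against 12 and 12 in siHOXA-AS3, or 0.38 and 0.3 against 0.13 and 0.19 FPKM. EdgeR's quasi-likelihood test with 6 libraries called 0 genes after HOXA-AS3 KD at an adjusted p of 0.05, so HOXA-AS3 itself was not called. HOXB-AS3 had 303 and 213 expected counts in siNT against 67 and 76 in siHOXB-AS3, or 27 and 29.3 against 6.05 and 7.96 FPKM. Total expected counts ranged from 15998518 to 26263938. Of 10 colon epithelial markers 9 were at 1 FPKM or more in every library, and CDX2 was not. Of 12 markers of other cell types 4 to 6 were listed at 0, and they summed to 719 to 1173 FPKM, nearly all of it LYZ (718 to 1172 FPKM), and to 1.18 to 2.31 without LYZ. The siHOXA-AS3 libraries differed most from each other, with an SD over genes of the log2 difference of 0.73, against 0.42 for siNT and 0.37 for siHOXB-AS3.

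After HOXB-AS3 KD most S100 genes were lower, with S100A2, S100A4 and S100A16 furthest down, and S100A10 was the only one of the 10 whose siHOXB-AS3 values both exceeded siNT. On the TMM-normalized log2 CPM scale 7 of 10 genes (S100A2, S100A4, S100A6, S100A11, S100A13, S100A14 and S100A16) lay below both siNT libraries in both siHOXB-AS3 libraries, where 30.9% of all genes tested did, and 1 of 10 lay above, where 30.9% of all genes did. The median log2 fold change of the 10 genes was -0.30, against -0.01 over all genes tested. Fitted to all 6 libraries, edgeR's quasi-likelihood test called 0 of the 10 at a Benjamini-Hochberg adjusted p of 0.05, and 0.0614% of all genes. At an unadjusted p under 0.05 it gave 4 of the 10 (S100A2, S100A4, S100A16 and S100A10), and 12.2% of all genes.

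The count differed with the libraries in the fit, and why it did was not tested. When the fit held siNT and siHOXB-AS3 alone, edgeR's quasi-likelihood test called 6 of 10 S100 genes, S100A10 up and S100A2, S100A4, S100A6, S100A13 and S100A16 down, where it called 23.3% of all genes. In the 6-library model the log2 fold changes hardly moved without siHOXA-AS3 replicate 1 or without siHOXA-AS3 replicate 2, which are in neither arm. In both fits that of S100A2 was -1.23 and that of S100A4 -0.63. DESeq2 on all 6 libraries called S100A2 alone of the 10, and 2.89% of all genes.

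S100A2, a largely nuclear member that binds p53 and is abundant in basal epithelia, differed most. Its FPKM was 15.1 and 16.1 in siNT, 16.2 and 10.8 in siHOXA-AS3, and 6.1 and 6.7 in siHOXB-AS3. Both siHOXB-AS3 values were below all 4 others, and of the siHOXA-AS3 pair one was level with siNT and the other lay in between. After HOXB-AS3 KD it stood at 0.425 times its siNT level, a log2 fold change of -1.24 (standard error 0.266) whose adjusted p was 0.142 in edgeR with 6 libraries, of 4.8e-05 with 2 groups and of 0.00759 in DESeq2.

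S100A4, which binds non-muscle myosin and promotes motility, came next. It had 1116 and 1103 FPKM in siNT, 1323 and 1064 in siHOXA-AS3, and 739 and 638 in siHOXB-AS3. The siHOXB-AS3 libraries were the lowest of the 6, while the siHOXA-AS3 libraries lay on either side of siNT. The log2 fold change of S100A4 after HOXB-AS3 KD was -0.63 (standard error 0.168). Its adjusted p was 0.2 in edgeR with 6 libraries and 3.6e-05 with 2 groups.

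S100A16 and S100A13 shared an order of conditions at lower levels. S100A16, a widely expressed member, had 202 and 208 FPKM in siNT, 306 and 221 in siHOXA-AS3, and 145 and 141 in siHOXB-AS3. S100A13, which takes part in the release of FGF1 and interleukin 1 alpha by a route without a signal peptide, had 77.2 and 82.8 FPKM in siNT, 111 and 92.5 in siHOXA-AS3, and 61 and 56.8 in siHOXB-AS3. For both genes the 3 conditions did not overlap, with siHOXA-AS3 on top and siHOXB-AS3 at the bottom, and the same held for S100A11. The share of all genes tested that did so is not given here. Of them 12.5% lay above siNT in both siHOXA-AS3 libraries and 30.9% below it in both siHOXB-AS3 libraries. S100A16 cleared siNT narrowly in siHOXA-AS3 replicate 2. In log2 CPM relative to the siNT mean it was at 0.10, against 0.03 in siNT replicate 2. The log2 fold changes after HOXB-AS3 KD were -0.48 for S100A16 (standard error 0.189) and -0.39 for S100A13 (standard error 0.187). EdgeR's adjusted p was 0.373 for S100A16 and 0.486 for S100A13 with 6 libraries, and 0.000603 and 0.0253 with 2 groups. In GENCODE v29 exons of S100A13 share 235 bases with S100A1 on the opposite strand and 536 with AL162258.1 on its own, and whether counting used strand is not given in the sources used here. S100A1 itself had at most 5 expected counts in a library.

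S100A10, the annexin A2 partner, was higher instead. It had 1766 and 1870 FPKM in siNT, 2426 and 2390 in siHOXA-AS3, and 2259 and 2371 in siHOXB-AS3. All 4 KD libraries were above both siNT libraries, and on the CPM scale the KDs overlapped. The log2 fold change was 0.40 after either KD (standard error 0.131 in both), with adjusted p-values of 0.641 after HOXA-AS3 KD and 0.282 after HOXB-AS3 KD in edgeR with 6 libraries. With 2 groups the adjusted p after HOXB-AS3 KD was 0.00195. Over the settings tried the log2 fold change stayed within 0.36 to 0.45 after HOXA-AS3 KD and 0.35 to 0.45 after HOXB-AS3 KD. Both comparisons use the same siNT libraries, so the like values are not independent of each other.

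**Figure D2:**
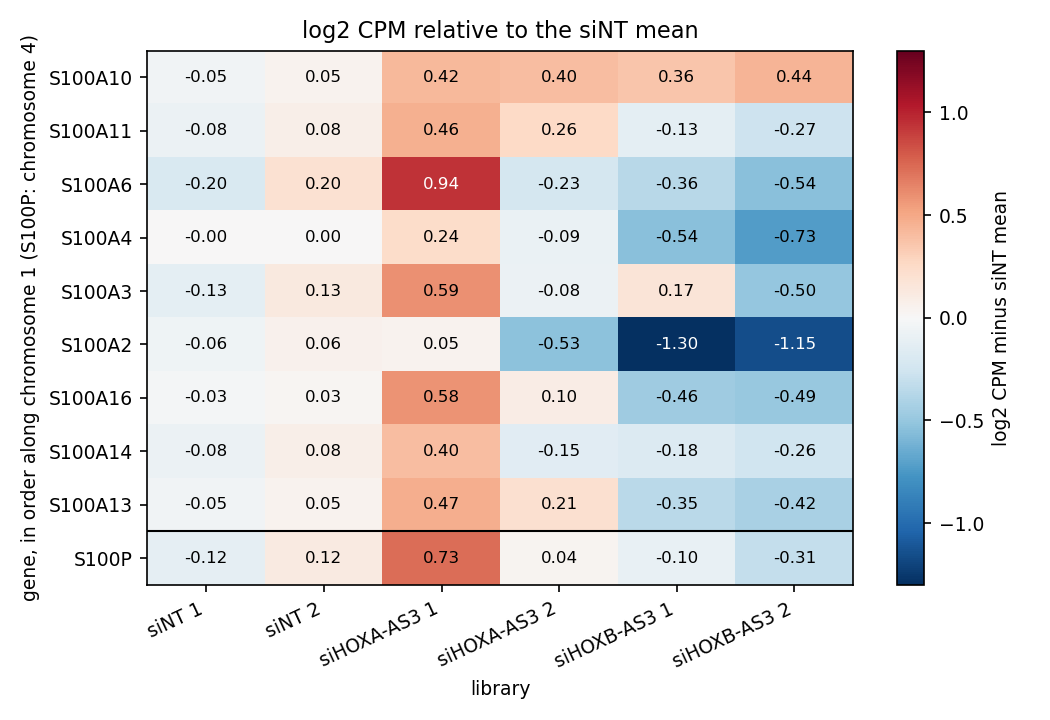
Log2 CPM of each S100 gene in each library minus the mean of the siNT libraries, with genes in their order along chromosome 1 and S100P, on chromosome 4, below the line. The S100A10 row is positive in all 4 KD libraries, at 0.36 to 0.44, and the S100A2 row reaches -1.30 and -1.15 in the siHOXB-AS3 libraries.

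S100A11, S100A14, S100A6 and S100P showed smaller or less even differences after HOXB-AS3 KD. S100A6 (calcyclin) had 3680 and 4769 FPKM in siNT, 8092 and 3612 in siHOXA-AS3, and 3178 and 2760 in siHOXB-AS3. The siHOXB-AS3 libraries were the lowest, but the siHOXA-AS3 libraries held both the highest value and one under siNT, and the difference after HOXB-AS3 KD, -0.46 on the log2 scale (standard error 0.356), had an adjusted p of 0.672 in edgeR with 6 libraries and 0.00363 with 2 groups. S100A11, a binding partner of annexin A1, had 2640 and 2892 FPKM in siNT and 2465 and 2200 in siHOXB-AS3, and S100A14, a member found mainly in epithelia, had 28.3 and 31.2 against 25.4 and 23.8. Their log2 fold changes were -0.20 (standard error 0.149) and -0.22 (standard error 0.232), neither called with 6 libraries or with 2 groups. S100P, a RAGE ligand that also binds ezrin, had 3028 and 3504 FPKM in siNT and 2961 and 2519 in siHOXB-AS3 (log2 fold change -0.20, standard error 0.241), and the conditions overlapped once scaled to CPM. S100A3 had 12 and 9 expected counts in siNT and 14 and 7 in siHOXB-AS3, and its log2 fold change of -0.12 had a standard error of 0.535, so a difference was not detectable at this depth.

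Epithelial markers differed in the same libraries, in both directions. On the log2 CPM scale 7 of the 10 colon epithelial markers were under siNT in each siHOXB-AS3 library and 2 (KRT8 and KRT18) above, against 30.9% and 30.9% of all genes. KRT8 and KRT18 had log2 fold changes of 0.20 (standard error 0.314) and 0.14 (standard error 0.232), and neither was called. In FPKM the KRT8 values overlapped, at 373 and 472 in siNT against 469 and 468 in siHOXB-AS3. So did those of KRT18, at 2093 and 2273 against 2233 and 2428. Of the 7 markers under siNT, VIL1 and CDX2 cleared it barely. VIL1 was at 5.789 log2 CPM in siHOXB-AS3 replicate 1 against 5.793 in siNT replicate 1. CDX2 was at -0.771 in siHOXB-AS3 replicate 1 against -0.768 in siNT replicate 2. The median over the 10 was -0.47, and CEACAM5 passed edgeR's test with 6 libraries (95.8 and 92.8 FPKM in siNT, 29.7 and 28.1 in siHOXB-AS3, log2 fold change -1.63, adjusted p = 0.0492). Its log2 fold change held between -1.70 and -1.58 over the settings, but it was not called with a replicate block (adjusted p = 0.138) or without any single siNT or siHOXB-AS3 library (adjusted p up to 1). The markers' part in the S100 values was not tested.

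After HOXA-AS3 KD S100A10, S100A11, S100A13 and S100A16 were higher in both libraries, and the other 6 genes overlapped with siNT. These 4 of 10 lay above both siNT libraries in both siHOXA-AS3 libraries, where 12.5% of all genes tested did, and 0 of 10 lay below, where 16.1% did. 9 of 10 log2 fold changes were positive, with a median of 0.36 against 0.01 over all genes, and without siHOXA-AS3 replicate 1 those of S100A3, S100A4, S100A6 and S100A14 turned negative. EdgeR's quasi-likelihood test with 6 libraries called 0 of 10, and 0% of all genes, as it did with siNT and siHOXA-AS3 alone (0 of 10, and 0% of all genes). At an unadjusted p under 0.05 the 6-library test gave S100A10 and S100A11, and 6.16% of all genes. DESeq2 called 0 of 10, and 0.415% of all genes.

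S100A11 had 3832 and 3355 FPKM in the siHOXA-AS3 libraries, both above its siNT values. Its log2 fold change was 0.36 (standard error 0.149, adjusted p = 0.778 in edgeR with 6 libraries). The values for S100A16 were 0.36 (standard error 0.189, adjusted p = 0.875) and for S100A13 0.35 (standard error 0.186, adjusted p = 0.881) in the same test. S100P reached 5468 FPKM in siHOXA-AS3 replicate 1 and 3413 in replicate 2, and S100A14 39.1 and 26.8. For S100P, S100A14, S100A6, S100A4, S100A2 and S100A3 the siHOXA-AS3 libraries overlapped with siNT, and no direction can be read for them.

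**Figure D3:**
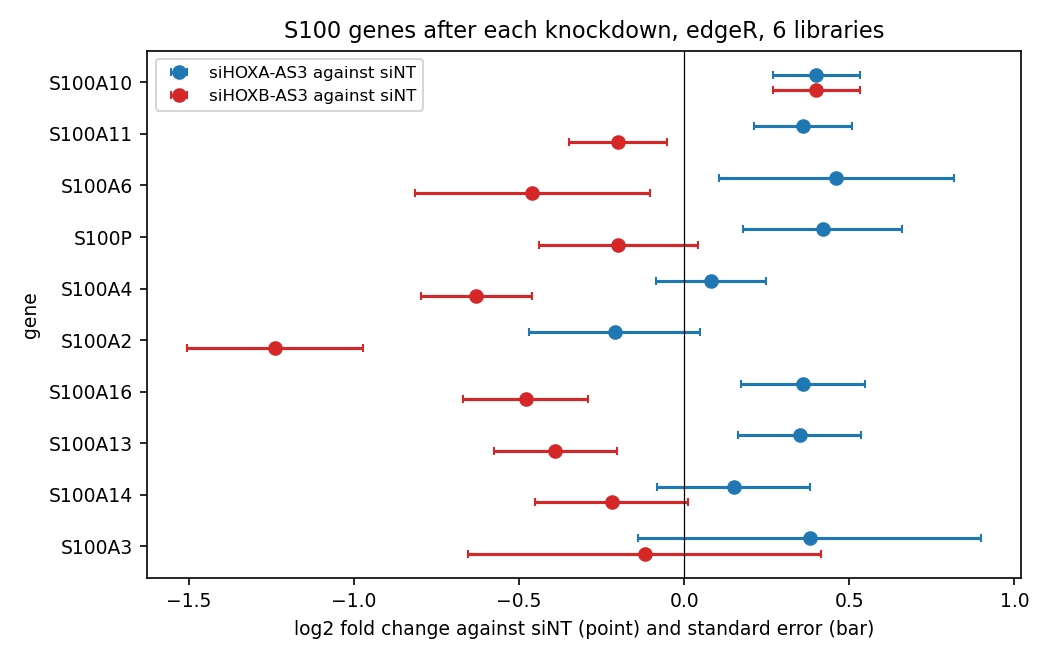
Log2 fold change of each S100 gene against siNT (points) with its standard error (bars) from edgeR with all 6 libraries, for siHOXA-AS3 and siHOXB-AS3. S100A10 is at 0.40 after either KD, while the others except S100A2 lie above 0 after HOXA-AS3 KD and below 0 after HOXB-AS3 KD. Of these, S100A3, S100A4, S100A6 and S100A14 are below 0 after HOXA-AS3 KD without siHOXA-AS3 replicate 1.

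The 2 siHOXA-AS3 libraries disagreed on the S100 genes in 1 direction. All 10 were higher in replicate 1 than in replicate 2, from 0.02 for S100A10 to 1.17 for S100A6 on the log2 CPM scale, with a median of 0.51. Over all genes tested the median difference was 0.05, and the share that was higher in replicate 1 is not given here. The S100 transcripts are short, 510 (S100P) to 1208 nucleotides (S100A16) in the deposited tables against a median of 2833 for the genes tested. They have a GC content of 50.1% (S100A10) to 60% (S100A6), above the median of 49.8% of the genes tested. The 4700 genes with a GC content of 50% to 61% had a median difference of 0.45 between these libraries, and the 3756 genes under 45% had -0.64. In the siNT libraries the S100 median was -0.13 and in the siHOXB-AS3 libraries 0.11. After a loess trend on GC content was removed from each library, edgeR's quasi-likelihood test called S100A10 and S100A16 up after HOXA-AS3 KD, 2 of 10 against 4.35% of all genes. For HOXB-AS3 KD it then called 4 of 10 (S100A10 up, S100A2, S100A4 and S100A16 down) against 15.1% of all genes.

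**Figure D4:**
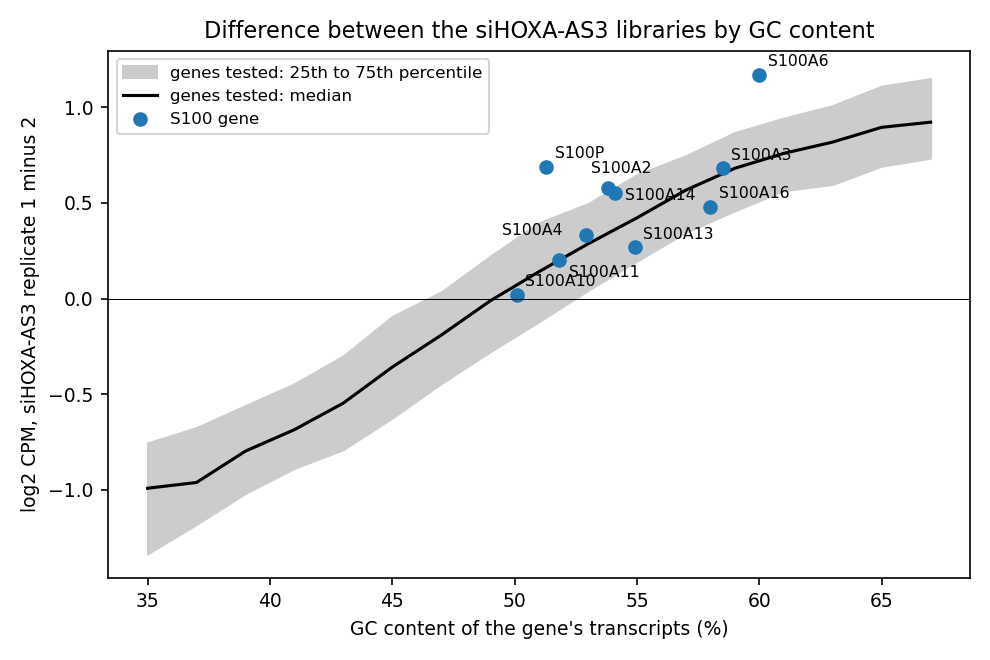
Difference in log2 CPM between siHOXA-AS3 replicates 1 and 2 against the GC content of a gene's transcripts in percent, with the median (line) and the 25th to 75th percentile (grey) of all genes tested in 2% bins and the S100 genes as points. The line crosses 0 near the GC content of S100A10, and S100A6, S100P and S100A2 lie above the grey band.

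Set against each other, the KDs differed most for S100A2, S100A6, S100A16, S100A13 and S100A4. The place of S100A6 rested on siHOXA-AS3 replicate 1, as its difference of -0.92 was -0.22 without that library and -1.40 without siHOXA-AS3 replicate 2. All 10 log2 fold changes of siHOXB-AS3 against siHOXA-AS3 were negative, with a median of -0.67 against -0.01 over all genes, although that of S100A10 was only -0.01 (standard error 0.131). On the log2 CPM scale 8 of 10 genes had siHOXB-AS3 values that were both under the siHOXA-AS3 values, where 22.5% of all genes were, and 0 of 10 were higher, where 22.8% were. EdgeR's quasi-likelihood test with 6 libraries called 0 of 10 here, and 1.57% of all genes, and gave 7 of 10 at an unadjusted p under 0.05, with 18.4% of all genes. With the 4 KD libraries alone it called 0 of 10, and 0.0156% of all genes. DESeq2 called 4 of 10 (S100A2, S100A4, S100A13 and S100A16), and 6.45% of all genes, and edgeR with the GC trend removed 7 of 10, and 27.5% of all genes. Without siHOXA-AS3 replicate 1 the log2 difference was -0.70 for S100A2, -0.54 for S100A4 and -0.59 for S100A13. Without siHOXA-AS3 replicate 2 it was -1.29, -0.88 and -0.87, in that order.

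The smallest adjusted p was that of S100A16, whose difference was -0.84 (standard error 0.19, edgeR's adjusted p = 0.0886), followed by S100A4 at -0.72 (standard error 0.168, adjusted p = 0.0933). S100A13 was at -0.74, S100A2 at -1.03 and S100A11 at -0.56, with adjusted p-values of 0.108, 0.114 and 0.119 in the same test. S100A6 and S100P were at -0.92 and -0.63, with wider standard errors of 0.359 and 0.242, and S100P was at -0.24 without siHOXA-AS3 replicate 1 and at -0.94 without siHOXA-AS3 replicate 2. The difference in S100A10 did not reach 0.1 in either direction under any setting tried.

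Proteins bound by S100 family members were read from a list of 28 genes, of which 20 were tested. EdgeR with 6 libraries called 0 of 20 after either KD and 2 of 20 between the KDs, AHNAK and TRPV6, against 0%, 0.0614% and 1.57% of all genes. At an unadjusted p under 0.05 it gave 2 of 20 after HOXA-AS3 KD and 5 of 20 after HOXB-AS3 KD, against 6.16% and 12.2% of all genes. With 2 groups in the fit it called 6 of 20 after HOXB-AS3 KD, 3 up and 3 down, near the 23.3% of all genes, and 0 after HOXA-AS3 KD, as for all genes (0%). The list's median log2 fold change was -0.09 after HOXA-AS3 KD and 0.04 after HOXB-AS3 KD, nearer to that of all genes than the S100 genes were.

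The annexins are the best known of these partners. ANXA2, the partner of S100A10, had 2006 and 2110 FPKM in siNT, 2675 and 2194 in siHOXA-AS3, and 2216 and 2154 in siHOXB-AS3. Its log2 fold changes were 0.25 and 0.14 (standard error 0.147 in both), and edgeR gave adjusted p-values of 0.92 and 0.786 with 6 libraries. The FPKM ratio of S100A10 to ANXA2 was 0.88 and 0.886 in siNT, 0.907 and 1.09 in siHOXA-AS3, and 1.02 and 1.1 in siHOXB-AS3, and so higher in all 4 KD libraries than in both siNT libraries. ANXA1, the partner of S100A11, had 535 and 504 FPKM in siNT and 889 and 871 in siHOXB-AS3. The log2 fold change of ANXA1 after HOXB-AS3 KD, 0.81 (standard error 0.16), had an adjusted p of 0.116 in edgeR with 6 libraries, 7.24e-07 with 2 groups and 0.0189 in DESeq2, while S100A11 was at -0.20. The ratio of S100A11 to S100A10 was 1.49 and 1.55 in siNT, 1.58 and 1.4 in siHOXA-AS3, and 1.09 and 0.928 in siHOXB-AS3.

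**Figure D5:**
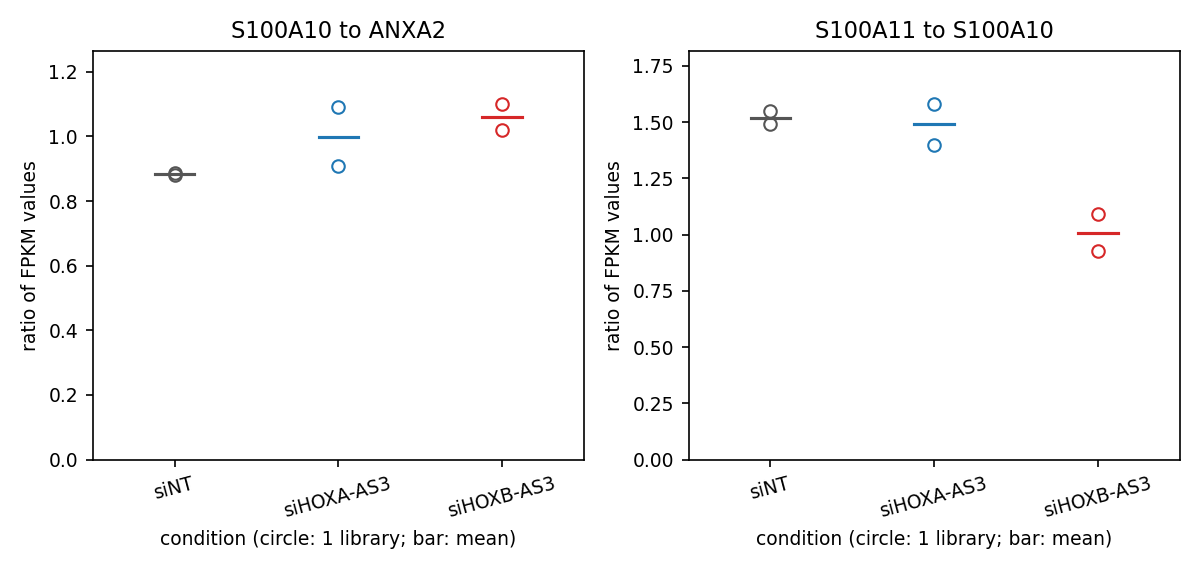
Ratio of FPKM values of S100A10 to ANXA2 (left) and of S100A11 to S100A10 (right) by condition, with 1 circle per library and a bar at the mean. The first ratio is 0.88 and 0.886 in siNT and 0.907 to 1.1 in the KD libraries, and the second is 1.4 to 1.58 in siNT and siHOXA-AS3 and 0.928 and 1.09 in siHOXB-AS3.

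AHNAK, a giant scaffold protein bound by the complex of S100A10 and annexin A2, had 138 and 133 FPKM in siNT, 158 and 141 in siHOXA-AS3, and 87.8 and 78.9 in siHOXB-AS3. It was lowest in the siHOXB-AS3 libraries, where S100A10 was above siNT, and its log2 fold change between the KDs was -0.80 (standard error 0.142, edgeR's adjusted p = 0.0496 with 6 libraries). TRPV6, an epithelial calcium channel carried to the membrane with S100A10, was named after its values were seen. It had 23, 11, 11 and 3 expected counts in the siNT and siHOXA-AS3 libraries and 57 and 81 in siHOXB-AS3, with a log2 difference between the KDs of 3.17 (standard error 0.512, edgeR's adjusted p = 0.0434). Neither call held with only the groups compared, with a replicate block, in limma-trend or without any single siNT or siHOXB-AS3 library, with adjusted p-values of up to 0.614 for AHNAK and 0.494 for TRPV6, and that of AHNAK was also lost with the length trend removed. CACYBP, the calcyclin-binding protein named for S100A6, had 34.5 and 30.8 FPKM in siNT, 18.3 and 32.5 in siHOXA-AS3, and 37.8 and 49.1 in siHOXB-AS3, and S100PBP, named for S100P, had 7.45 and 5.43, 5.03 and 5.72, and 4.71 and 4.81. Neither passed edgeR's test with 6 libraries in any comparison, and CACYBP passed it with 2 groups after HOXB-AS3 KD (adjusted p = 0.00701).

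Among the other listed partners ANXA5 and STIP1 stood out after HOXA-AS3 KD, and MDM2 and MYH10 after HOXB-AS3 KD. ANXA5, a phospholipid-binding annexin, had 285 and 267 FPKM in siNT and 392 and 450 in siHOXA-AS3, and STIP1, a co-chaperone, 134 and 133 against 106 and 103. Their log2 fold changes were 0.61 (standard error 0.145) and -0.34 (standard error 0.137), and edgeR with 6 libraries gave an adjusted p of 0.517 and 0.76. MDM2, the ubiquitin ligase of p53, had 20.7 and 17.8 FPKM in siNT and 11 and 11.9 in siHOXB-AS3, and MYH10, a non-muscle myosin heavy chain, 2.16 and 2.04 against 1.42 and 1.23. Their log2 fold changes were -0.70 (standard error 0.259) and -0.62 (standard error 0.222). The adjusted p of MDM2 was 0.333 in edgeR with 6 libraries, 0.202 in DESeq2 and 4.08e-05 in edgeR with 2 groups, and that of MYH10 was 0.32, 0.358 and 0.00805.

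Of the 11 S100 genes outside the 10, only S100A5 was tested, with 45 and 15 expected counts in siNT, 45 and 31 in siHOXA-AS3, and 30 and 28 in siHOXB-AS3, and edgeR called it in no comparison. S100A7, S100A7A, S100A7L2, S100A8, S100A9, S100A12, S100B and S100G were listed at 0 in every library. S100A8 and S100A9, the subunits of calprotectin, are abundant in neutrophils and in inflamed mucosa. On chromosome 1 the genes listed at 0 lie together between S100A11 and S100A6 in the RefSeq order, with expressed members on both sides. S100B and S100G are on other chromosomes. Of 15 listed genes that neighbour the S100 genes on chromosomes 1 and 4, 14 were tested, and 0 passed an unadjusted p of 0.05 in edgeR with 6 libraries after either KD, against 6.16% and 12.2% of all genes. Between the KDs 3 of 14 had an unadjusted p under 0.05, SNAPIN, CHTOP and SLC27A3, all with higher values in siHOXB-AS3, against 18.4% of all genes. With the GC trend removed edgeR called these and GATAD2B and DENND4B, 5 of 14, against 27.5% of all genes. These 5 were named after their values were seen. Over all 14 tested neighbours the median log2 fold change was -0.04 after HOXA-AS3 KD and -0.02 after HOXB-AS3 KD.

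S100A6 had the widest range of log2 CPM over the 6 libraries, 1.49, and S100P one of 1.04. The 2 siHOXA-AS3 libraries alone differed by 1.17 for S100A6 and by 0.69 for S100P. Among 10960 genes with a mean of at least 1 FPKM, the genes nearest to S100A6 by the root mean square difference of centred log2 CPM over the 6 libraries were DDR1 (0.079), SLC38A12 (0.107) and LTBP3 (0.111). For S100P they were MAP3K10 (0.037), UBALD1 (0.05) and PRSS3 (0.051). Like S100A6 and S100P, all of these had their highest FPKM in siHOXA-AS3 replicate 1. DDR1, a collagen receptor kinase, had 7.96 and 11.1 FPKM in siNT, 15.9 and 7.9 in siHOXA-AS3, and 6.85 and 6.42 in siHOXB-AS3, which ranks the libraries in the same order as S100A6. The nearest of the other S100 genes was S100P for S100A6 (0.182) and S100A14 for S100P (0.135).

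Promoters are shown for S100A2 and S100A4, the members furthest down after HOXB-AS3 KD, and for S100A10, which stood apart from the other members. The sequences are the 250 bases before the RefSeq start site in GRCh38.p14, all on the minus strand of chromosome 1, in lower case from 5′ to 3′ with motif matches in capitals. S100A2 (the upstream of its 2 listed starts) lies at chr1:153565845-153566094, S100A4 at chr1:153545807-153546056 and S100A10 at chr1:151993860-151994109. The deposited values were made on hg19, so these positions are not those of the count tables.
S100A2: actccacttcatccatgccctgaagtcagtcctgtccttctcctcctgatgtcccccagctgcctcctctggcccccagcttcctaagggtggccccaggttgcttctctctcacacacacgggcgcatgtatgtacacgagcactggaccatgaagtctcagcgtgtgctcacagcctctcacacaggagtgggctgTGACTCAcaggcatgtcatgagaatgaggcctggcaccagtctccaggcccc
S100A4: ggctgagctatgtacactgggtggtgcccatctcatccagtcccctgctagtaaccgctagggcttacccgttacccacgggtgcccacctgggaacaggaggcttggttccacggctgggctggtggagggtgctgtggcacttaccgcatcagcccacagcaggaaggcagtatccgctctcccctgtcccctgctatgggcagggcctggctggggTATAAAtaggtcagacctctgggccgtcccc
S100A10: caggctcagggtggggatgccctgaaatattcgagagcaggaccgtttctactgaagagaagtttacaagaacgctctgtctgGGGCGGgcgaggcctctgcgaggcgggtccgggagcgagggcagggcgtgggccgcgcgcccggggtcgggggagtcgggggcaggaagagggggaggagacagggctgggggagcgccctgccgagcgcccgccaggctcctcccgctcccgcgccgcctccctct

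These 3 windows hold different motifs. That of S100A10 has a GC content of 71.2%, a GC box (GGGCGG) that begins 167 bases before the start and no TATA box. That of S100A4 has 62.8% GC and a TATA box (TATAAA) that begins 31 bases before the start, and that of S100A2 has 59.2% GC and an AP-1 motif (TGANTCA) that begins 52 bases before it. Both strands of the 14 windows listed for the 10 genes were searched. The TATA box was in 3 of the 14 windows, of S100A4, S100A13 and S100P (10.7% of all 35116 windows of this length hold it). The GC box was in 6 of the 14, of S100A3, S100A6, S100A10, S100A11, S100A13 and S100A16 (42.6% of all windows). The AP-1 motif was in 2 of the 14, of S100A2 and S100A3 (6.57%), the CDX motif TTTATGG in 1 of S100A14 (2.3%) and the TEAD motif GGAATG in 1 of S100A16 (11.9%). A match is a run of letters only and says nothing on binding.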

How the data were processed

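RNA-seq libraries of polyadenylated RNA (Lexogen Sense kit, per the labels) came from HT-29 cells, 2 for each of siNT, siHOXA-AS3 and siHOXB-AS3. The study's methods give another siRNA dose and RNA reagent than the labels, and the labels were used. The authors ran RSEM on RefSeq genes (hg19 in the submitters' processing notes) and deposited expected counts, the estimated fragments per gene without normalization. The deposited TPM values sum to the same total in each library, and the deposited FPKM values take account of gene length and library size. Aligner, RSEM version and strand setting: not given in the sources used here.

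Expected counts were rounded and tested in R 4.3.3 with edgeR 4.0.16 (filterByExpr with a minimum count of 10, TMM, robust quasi-likelihood fit, 1 model of 6 libraries, Benjamini-Hochberg adjustment over 13034 genes, threshold 0.05). Standard errors are the log2 fold change divided by the square root of F. Log2 CPM values were computed from the counts with TMM. Fits were tested on simulated counts. Rows that join several genes held 6.02% to 6.62% of counts. No library pair agreed within sampling noise (smallest chi-square per degree of freedom 7.07). Symbols, gene order and promoters came from RefSeq (GRCh38.p14), and GC content and exons from GENCODE v29, with a GC value for 96.8% of genes tested.

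The 10 genes are those of a fixed list, and the members, partner, neighbour and marker lists were chosen with earlier results of these data known. Named beside them were other S100 genes with at least 10 counts in a library, ANXA2, ANXA1, AHNAK, CACYBP and S100PBP, up to 3 more partners and 2 neighbours per KD (mean FPKM of at least 1, unadjusted p under 0.05, both KD libraries on 1 side of both siNT libraries, by size), the targeted lncRNAs, and the 3 genes nearest in profile to the member of widest range and to S100P. CEACAM5 and TRPV6 were named after their values were seen. Alternatives were DESeq2 1.42.0, RLE size factors, library totals, no low-count filter, a mean FPKM of at least 1, a fit of only the groups compared, a replicate block, limma-trend (limma 3.58.1) on log2(FPKM + 0.1) and log2(FPKM + 1), a loess trend (span 0.3) on gene length or GC content removed, and each library left out. A crossed block and leaving out libraries from the 2-group fit were added after the data were seen.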

Additional observations from a re-analysis of the deposited data

Results flagged for a closer look

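S100A11, S100A13 and S100A16 were higher in both siHOXA-AS3 libraries than in both siNT libraries and lower than both in each siHOXB-AS3 library, so the KD libraries lay on opposite sides of siNT. Of all genes tested 12.5% lay above siNT in both siHOXA-AS3 libraries and 30.9% below it in both siHOXB-AS3 libraries. The share that did both is not given here. The log2 difference of siHOXB-AS3 against siHOXA-AS3 was -0.56 for S100A11, -0.74 for S100A13 and -0.84 for S100A16. In edgeR's quasi-likelihood test with all 6 libraries this difference had an adjusted p of 0.119, 0.108 and 0.0886, in that order, and missed the threshold for all 3. None of the 3 was called after either KD in that test. With the GC trend removed edgeR's adjusted p-values were 0.00503, 0.00158 and 0.000647, in a setting that called 27.5% of all genes.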

How the results depend on the processing

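The counts of calls depended on the setting more than the fold changes did. S100 genes called after HOXA-AS3 KD, after HOXB-AS3 KD and between the KDs, 0 in each, were 0, 1 and 4 in DESeq2, 0, 1 and 3 without the low-count filter, 2, 4 and 7 with the GC trend removed, 0, 6 and 0 with only the groups compared and 0, 0 and 2 with the length trend removed. They also changed when some single libraries were left out of the 6, or out of the 4 in the 2-group fit of HOXB-AS3 KD. A condition then holds 1 library, so counts of calls are not given for these fits. The log2 fold change of S100A2 after HOXB-AS3 KD ran from -1.31 to -1.16 with 1 of the 6 left out. Over all genes the 0, 8 and 204 calls became 51, 347 and 792 in DESeq2, 24, 265 and 706 without the filter, 549, 1903 and 3472 with the GC trend removed, 0, 2995 and 2 with only the groups compared and 1, 12 and 93 in limma-trend on log2(FPKM + 0.1), and the last was 76 on log2(FPKM + 1). Leaving out 1 library gave 0 to 4031, 0 to 3035 and 0 to 5027. Partners called, 0, 0 and 2, were 0, 1 and 4 in DESeq2, 0, 2 and 4 without the filter, 1, 5 and 9 with the GC trend removed and 0, 6 and 0 with only the groups compared. Between the KDs they were 1 with a mean FPKM of at least 1, 1 with the length trend removed and 0 in limma-trend with either pseudocount, and with 1 library left out 0 to 8, 0 to 6 and 0 to 13. A condition left with 1 library was taken to vary as the other conditions do. Why these counts differ was not tested.

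Whether the replicate numbers pair the samples is not said in the labels. The deviations of same-numbered libraries correlated at -0.347 for siNT and siHOXA-AS3, -0.139 for siNT and siHOXB-AS3 and 0.15 for the KDs. These correlations cannot decide it, because the difference between replicates also varied with GC content. Its median at 50% to 61% and under 45% GC was 0.45 and -0.64 in siHOXA-AS3, and -0.11 and 0.18 in siNT. With the number as a block edgeR called 0 S100 genes and 0 partners in each comparison, and 0, 0 and 10 genes. With the numbers crossed between siNT and the KDs, a pairing added after the data were seen, the calls were 14, 225 and 758 genes, 0, 1 and 2 S100 genes and 0, 1 and 5 partners.

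The summed S100 level after HOXB-AS3 KD moved from -0.30 to -0.14 when CPM replaced TPM, and its sign was the same under the alternatives tried. Of the fold changes of single S100 genes 10 values changed sign. After HOXA-AS3 KD S100A2 turned positive without siHOXA-AS3 replicate 2 (range with 1 library left out -0.53 to 0.0589), and 4 genes turned negative without siHOXA-AS3 replicate 1, S100A3 (-0.0810 to 0.70), S100A4 (-0.0925 to 0.25), S100A6 (-0.24 to 0.94) and S100A14 (-0.15 to 0.40). After HOXB-AS3 KD S100A3 ranged from -0.59 to 0.21 and was positive without siNT replicate 2 or siHOXB-AS3 replicate 2. Between the KDs S100A10 ranged from -0.0528 to 0.0378, was positive without siHOXA-AS3 replicate 1 or siHOXB-AS3 replicate 1, and was 0.0016 with the GC trend removed. With 7 to 19 counts a library, S100A3 allows no direction to be read.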
